A study of Homo sapiens with 7 samples.

Results

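Mitochondrial ribosomal protein genes were followed in HepG2, a cell line from a human liver cancer, through their RNA level, their nucleosome positions and 5 histone marks. The members were the rows of the expression table on the main chromosomes with a gene symbol that starts with MRPL or MRPS and goes on with a number. By this rule 79 rows were found among 30032 rows of the table, of which 22113 carried a gene symbol and lay on a main chromosome. The 79 rows held 76 symbols, 47 of MRPL type and 29 of MRPS type, because MRPS2, MRPS9 and MRPS30 had a pair of rows each. The members were scattered over 21 chromosomes, with 9 rows on chromosome 2 and 8 on chromosome 1, and none on chromosomes 18, X and Y.

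The study comprised 7 samples of HepG2, with 1 library for each of native MNase-Seq, RNA-Seq and ChIP-Seq of the repressive marks H3K27me3 and H3K9me3 and the activation marks H3K4me3, H3K27ac and H3K9ac. Without replicates, no test between conditions was possible and no p-value is given. The RNA level was given as FPKM, which scales fragment counts to transcript length and to the size of the library, in 2 columns of the RNA-Seq sample, here called run 1 and run 2 here and averaged as 1 replicate. The identity of the cells was checked with marker genes fixed for the purpose. Of 11 liver markers, 11 had an FPKM of 1 or more, from 56.6 to 10011, with ALB highest. Of 12 markers of blood, endothelium, fibroblasts, muscle and neurons, 2 did, ACTA1 at 3.71 and SNAP25 at 4.59, and the blood markers PTPRC and CD3E were listed at 0. The files used here hold no read count per nucleosome position, peak or locus, so the number of reads behind a single value is not given.

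Mitochondria keep a ribosome of their own, which translates the few messenger RNAs of mitochondrial DNA, all of which encode subunits of the respiratory chain and ATP synthase. Its RNAs are made inside the organelle, but all of its proteins are encoded in the nucleus, made in the cytosol and imported. Some have a counterpart in the bacterial ribosome and others belong to the mitochondrial ribosome alone. At active promoters the nucleosomes next to the transcription start site (TSS) commonly carry H3K4me3 and the acetyl marks H3K9ac and H3K27ac, whereas H3K27me3 is left by Polycomb proteins and H3K9me3 is typical of heterochromatin. A nucleosome position with H3K4me3, H3K9ac and H3K27ac and neither of the other marks is called trivalent, or T, below.

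Mitochondrial ribosomal protein genes were expressed almost throughout, at levels that lay close together. Of the 79 rows, 78 had an FPKM of 1 or more, against 51.3% of all named rows. Their median was 42.6 FPKM, with quartiles of 30.0 and 64.5, beside a median of 1.24 over all named rows and 11.9 over the 11354 named rows at an FPKM of 1 or more. That median lay at percentile 91.5 of all named rows and at percentile 83.4 of the expressed ones. An FPKM from 20 to 100 was found for 64 members, 81.0%, against 14.0% of all named rows and 27.3% of expressed ones. The 90th percentile of the members was 4.26 times their 10th percentile, compared with 30.3 times among expressed rows and 5.73 times among 31 rows of proteasome subunit genes.

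**Figure D1:**
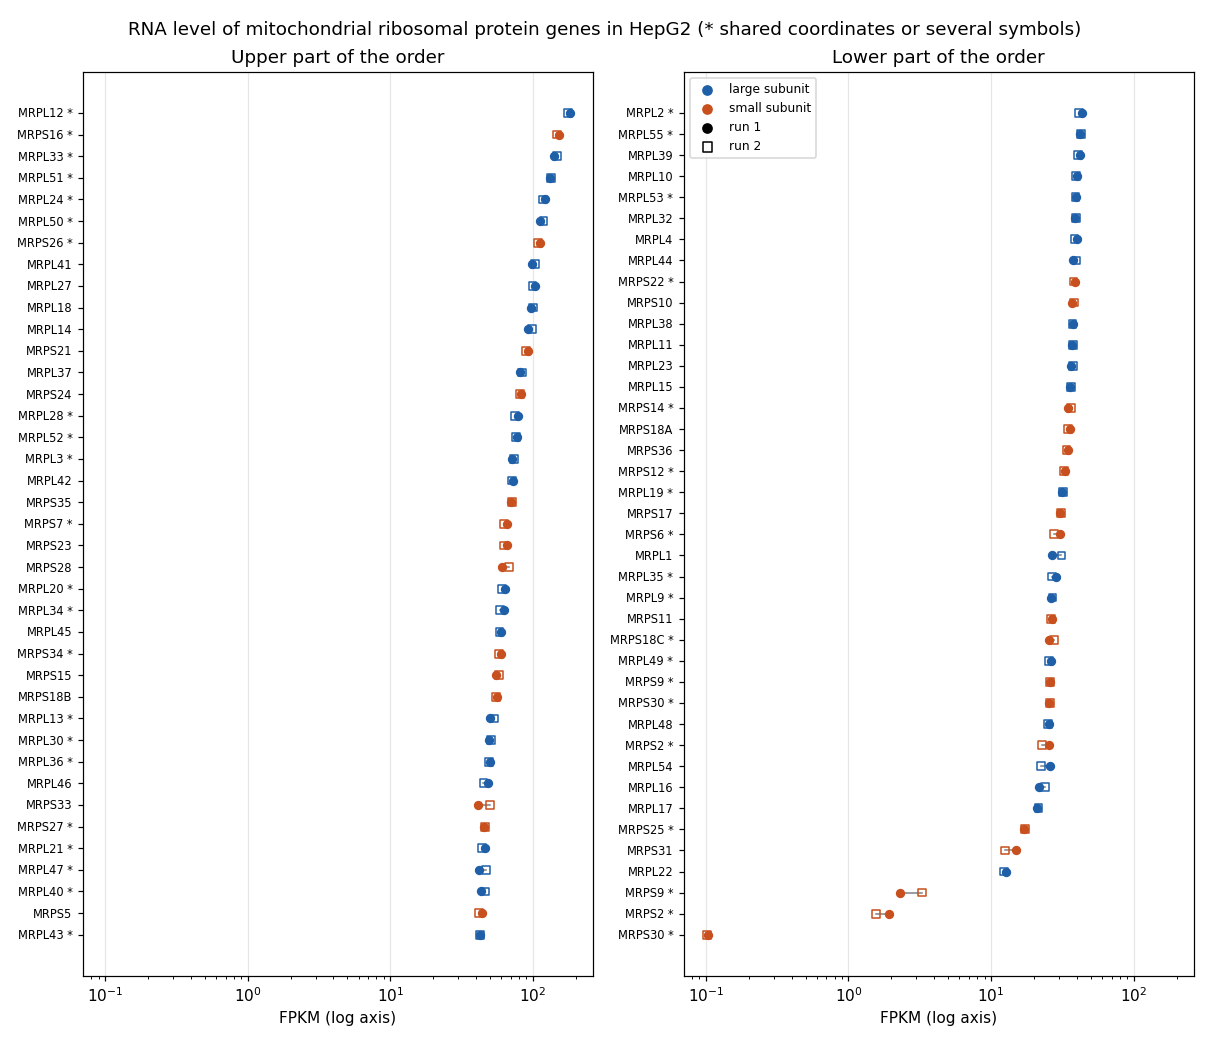
FPKM of each of the 79 member rows in run 1 (filled circles) and run 2 (open squares) on a log axis, ordered by the mean, with the upper and the lower part of the order in separate panels. Colours give the ribosomal subunit and asterisks mark rows with shared coordinates or several symbols; 64 rows lie between 20 and 100, and the lowest 3 rows are second rows of MRPS9, MRPS2 and MRPS30.

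The expression table lists a locus for each row, and for many members this locus was not theirs alone. Coordinates were shared with at least 1 other row for 36 members, and 11 rows held several symbols, 5 of them at coordinates that no other row had. Together 41 of the 79 rows had shared coordinates or several symbols, against 38.2% of all named rows, and the remaining 38 are called members with their own coordinates. The lengths of the loci differed, with a median of 10729 bp for members with their own coordinates and 48450 bp for the others. In the latter, the ends of the locus can belong to a neighbouring gene, so results on marks are given for all 79 rows and for the 38.

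The highest values came mostly from rows with several symbols or shared coordinates, 7 of the top 10. The row of HGS, MRPL12 and SLC25A10 was first, at 181 FPKM in run 1 and 177 in run 2. MRPL12 forms the stalk of the large subunit and also binds the mitochondrial RNA polymerase, but this row gives its RNA together with that of 2 other genes. Next were the row of ANXA7, DNAJC9, MRPS16 and TTC18 with 153 and 148 and MRPL33 with 140 and 148, whose values met at 148. MRPL51 followed with 133 and 134, and the row of HDGF and MRPL24 with 121 and 118. Across the 11 rows with several symbols the median was 76.9 FPKM, beside 39.5 in the 68 rows with 1 symbol. Restricted to members with their own coordinates, the median was 39.5 FPKM and the range 12.5 to 101, an 8.10-fold range.

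Among members with their own coordinates, MRPL27 and MRPL41 of the large subunit stood highest. MRPL27 reached 103 FPKM in run 1 and 99.6 in run 2, and MRPL41 had 98.8 and 104, so their order differed between the runs. MRPL18, also of the large subunit, followed with 97.6 and 100. At the low end were MRPL22, which lines the exit tunnel of the large subunit, with 12.7 and 12.4, and MRPS31 of the small subunit with 15 and 12.5. These lowest members overlapped each other between the runs and lay below every other member with its own coordinates. MRPS25, whose row shares its coordinates, had 17.0 and 17.2.

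The pairs of rows for 1 symbol differed widely. MRPS9 was listed at 25.8 and at 2.77 FPKM, MRPS2 at 24.1 and at 1.74, and MRPS30 at 25.7 and at 0.103, the single member row under an FPKM of 1. In each pair both rows had the same coordinates, so the marks could not be assigned to either of them. The second rows of MRPS9 and MRPS2 also had the largest ratios between the runs, 2.29 and 3.26 for MRPS9, a 1.43-fold ratio, and 1.92 and 1.56 for MRPS2. MRPS33 came next, with 41.6 and 50.3. For the members as a whole the runs were close, with a median ratio of 1.03-fold, against 1.04-fold over 11307 expressed rows, and 69 of 79 within 1.1-fold. Run 2 was the higher in 35 rows.

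By ribosomal subunit the levels overlapped. The 47 rows of the large subunit had a median of 44.6 FPKM and the 32 rows of the small subunit 36.5, a ratio of 1.22. Among members with their own coordinates the direction turned, with 39.2 in 23 large-subunit rows and 46.0 in 15 small-subunit rows, a ratio of 0.853. The 47 rows with a bacterial counterpart had a median of 39.3 and the 32 rows without one 44.6, and with their own coordinates these medians were 38.3 (n = 22) and 46.3 (n = 16). In each of these comparisons the quartiles of the groups overlapped. The symbols follow the original naming: MRPS18A and MRPS30 are now known to sit in the large subunit, and MRPS36, at 34.3 FPKM, has been reassigned to the alpha-ketoglutarate dehydrogenase complex.

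MRPS18A, MRPS18B and MRPS18C are paralogues, all related to the same protein of the bacterial small subunit. MRPS18B was highest, at 56.2 FPKM in run 1 and 55.1 in run 2, MRPS18A had 35.9 and 34.5, and MRPS18C had 25.4 and 27.5. The runs of the 3 genes did not overlap, but the row of MRPS18C shares its coordinates with 2 further rows.

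Set beside other housekeeping machines, mitochondrial ribosomal protein genes were of moderate level. The 87 rows of cytosolic ribosomal protein genes had a median of 968 FPKM, 22.7 times that of the members, the 91 rows of respiratory chain genes had 86.5, and the 31 proteasome rows had 78.9. Other genes of mitochondrial gene expression, listed by their function, mostly stood lower. Of their 66 rows all had an FPKM of 1 or more, but 29 reached 20, against 73 of the 79 members, and their median was 18.6 FPKM, so that the members' median was 2.28 times as high. By list, 7 proteins that bind to or form part of the mitochondrial ribosome without an MRP symbol had a median of 61.6, from 24.1 for ICT1, a peptidyl-tRNA hydrolase built into the large subunit, to 187 for OXA1L, the inner membrane insertase. Translation factors (12 rows) had a median of 19.9, with C12orf65, a release factor relative, lowest at 5.64 and TUFM, the elongation factor Tu, highest at 116. Aminoacyl-tRNA synthetases (17 rows) had 16.5, from PARS2 at 2.61 to 72.1 in the row of HARS2, which gives its RNA together with that of ZMAT2. Assembly and rRNA modification genes (21 rows) had 14.9, from MRM1 at 4.28 to NGRN at 72.9, and genes of mitochondrial transcription and mRNA stability (9 rows) had 18.6, from MTERF at 7.82 to LRPPRC at 104.

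**Figure D2:**
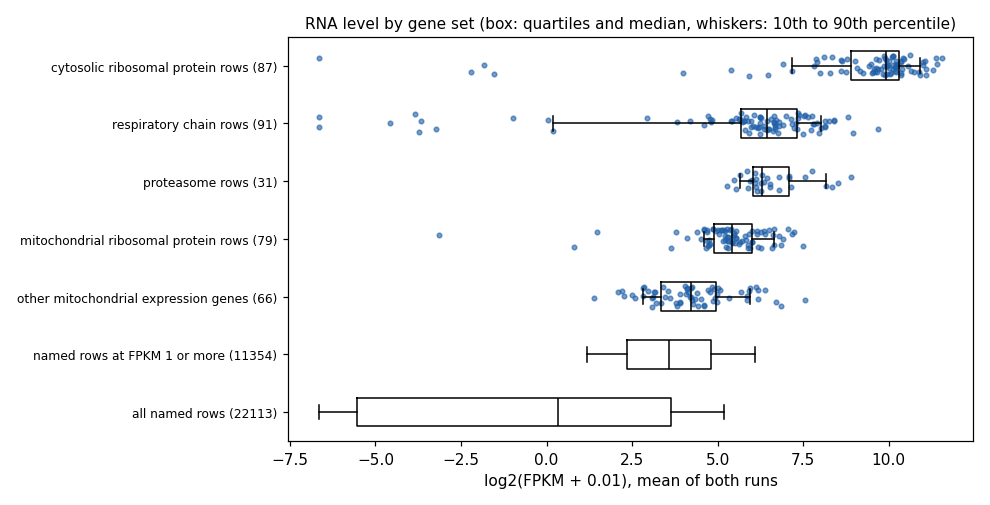
RNA level by gene set as log2(FPKM + 0.01), the mean of both runs, with the number of rows in brackets; boxes give quartiles and median, whiskers the 10th and 90th percentiles, and points single rows in sets under 200 rows. The 79 member rows sit below cytosolic ribosomal protein genes and above the median of expressed rows, with few rows far from the box.

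Within 2 kb of either end of the locus, H3K4me3 was found at 69 of the 79 members, against 58.7% of all named rows and 84.8% of expressed ones. H3K9ac was found at 67, against 56.2% of all named rows and 84.0% of expressed ones, and H3K27ac at 67, against 51.4% and 81.0%. With 84.8% of the members, both acetyl marks were near the share of expressed genes. A trivalent nucleosome was found at 66 members, 83.5%, against 48.1% of all named rows and 77.4% of expressed ones, so that the share of members was near that of expressed genes in general. The median number of trivalent nucleosomes was 3 per member, as among expressed rows.

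No histone mark at all was found near the ends of 10 members, and each of these 10 shares its coordinates with another row. They were MRPL2 (in a row with CUL7), MRPL13, MRPL21, MRPL30, MRPL40, MRPL47, MRPL50, MRPS27 and both rows of MRPS30, at lengths of 24535 to 149241 bp and levels of 0.103 to 116 FPKM. Each of the 10 had trivalent nucleosomes elsewhere in its locus, from 2 to 13 with a median of 5. Without a trivalent nucleosome near the ends, but with other marks, were MRPL12 and MRPL33, which share coordinates, and the row of MRPS6 and SLC5A3. In the latter 3 positions had H3K4me3 and 3 had H3K9ac, and none in the whole locus was trivalent. Over the whole locus with 2 kb on either side, H3K4me3 was found at 79 of 79 members and T at 78, beside T at 93.6% of expressed named rows and 59.5% of all named rows.

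Repressive marks were nearly absent near the ends. H3K27me3 or H3K9me3 was found at 1 of 79 members, against 12.9% of all named rows and 5.17% of expressed ones. That member was MRPL35, with 2 H3K27me3 positions beside 3 trivalent ones, at an FPKM of 27.6 and in a locus that 2 rows share. Over whole loci, repressive marks were found in 12 of 79 member rows, beside 30.0% of expressed named rows. With their own coordinates they were found in 1 of 38 (MRPS31, 1 H3K27me3 position), beside 25%. These shares cover unlike lengths, because member loci were shorter. Median lengths were 24535 bp for members and 45552 bp for expressed named rows, and 10729 and 31762 bp with their own coordinates. Shares at equal length were not compared.

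For the 38 members with their own coordinates, the strand was known from the reference or from the order of the table, and the end at the TSS, called the start end, could be told from the other end. H3K4me3 was found at the start end of 38 of 38, against 92.2% of expressed named rows with their own coordinates, and T at 37 of 38, against 84.5%. At least 3 trivalent nucleosomes were found at 26 of 38, 68.4%, against 56.2%. The same share was 72.2% of cytosolic ribosomal protein rows, 73.9% of proteasome rows and 39.6% of respiratory chain rows with their own coordinates. Among other genes of mitochondrial gene expression, 21 of 21 rows with their own coordinates had T near an end and 16 had at least 3 at the start end. At the other end T was found for 3 of 38 members, 7.89%, against 6.62%. These were MRPL10 and MRPS18B with 2 each and MRPL41 with 4, whose locus of 699 bp is shorter than the window.

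**Figure D3:**
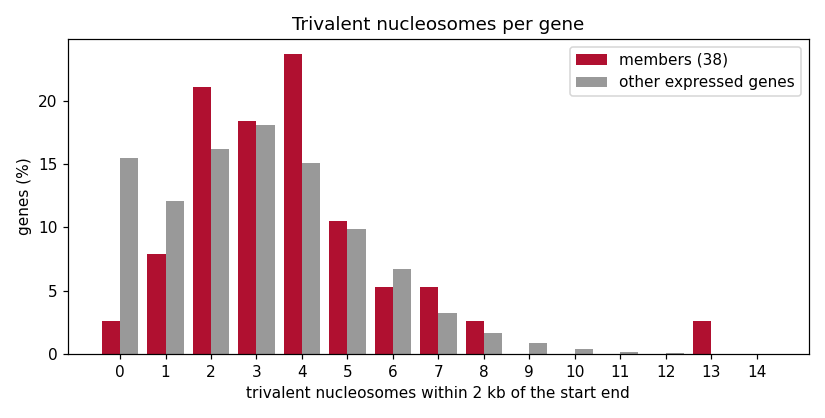
Share of genes (%) by the number of trivalent nucleosomes within 2 kb of the start end, for 38 members and 6337 other expressed genes with their own coordinates. Members are most often at 4 (23.7%), 2 (21.1%) and 3 (18.4%), and 2.63% of members have none, against 15.5% of the other genes.

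The number of trivalent nucleosomes at the start end ran from 0 to 13. MRPS18B had 13, a number that 1 of the 6337 other expressed genes exceeded, and MRPL18 was next with 8, followed by MRPL14 and MRPS35 with 7 each. MRPL11, MRPL44 and MRPS33 had 1 each, and MRPL10, the protein that anchors the MRPL12 stalk, had 0. At MRPL10 the start end had 3 positions with H3K4me3, and the 2 trivalent positions of the locus lay at its other end. Counting every mark near both ends, MRPS18B had the most marked positions of all members, 19 of 40, and MRPL19, with shared coordinates, had 15 of 44. MRPL14 had 12, as did the row of MRPS34 and NME3, and the MRPS16 row had 14. The fewest among members with their own coordinates were 2 at MRPS24, 3 at MRPS36 and 4 each at MRPL38, MRPL44 and MRPS28.

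The number of trivalent nucleosomes did not order the members by level. MRPS24, with 2 marked positions, had an FPKM of 82.2, and MRPL22, the lowest member with its own coordinates, had 5 marked positions of which 2 were trivalent. Across the 38 members Spearman's rho between FPKM and T at the start end was 0.08, and across the 79 rows with both ends it was -0.02. Across 6375 expressed named rows with their own coordinates rho was 0.31. These are correlations across genes of the same libraries, and genes are not independent replicates. Members cover a much narrower range of levels than expressed genes do, a 3.90-fold span from the 10th to the 90th percentile against 28.8-fold with their own coordinates. Whether the range bears on the difference in rho was not tested.

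Around the start end of the 38 members, 260 of 742 nucleosome positions within 2 kb carried a mark (35.0%, exact Clopper-Pearson 95% interval 31.6 to 38.6), compared with 31.2% at 6337 other expressed genes. Of the marked positions 143 were trivalent (55.0%, 48.7 to 61.2), beside 51.4% at other genes. H3K4me3/H3K9ac made up 18.1% (13.6 to 23.3) and H3K4me3 alone 14.6% (10.6 to 19.5), beside 16.3% and 19.6%. H3K9ac alone, H3K27ac alone, H3K9ac/H3K27ac and H3K4me3/H3K27ac made up 4.62%, 3.08%, 2.31% and 2.31%, and no position had a repressive mark. The intervals cover counting error only, and positions of 1 gene are not independent. MRPL46 and MRPS11 share a start region, so 5 of the 143 trivalent positions were counted for both and 138 were distinct.

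**Figure D4:**
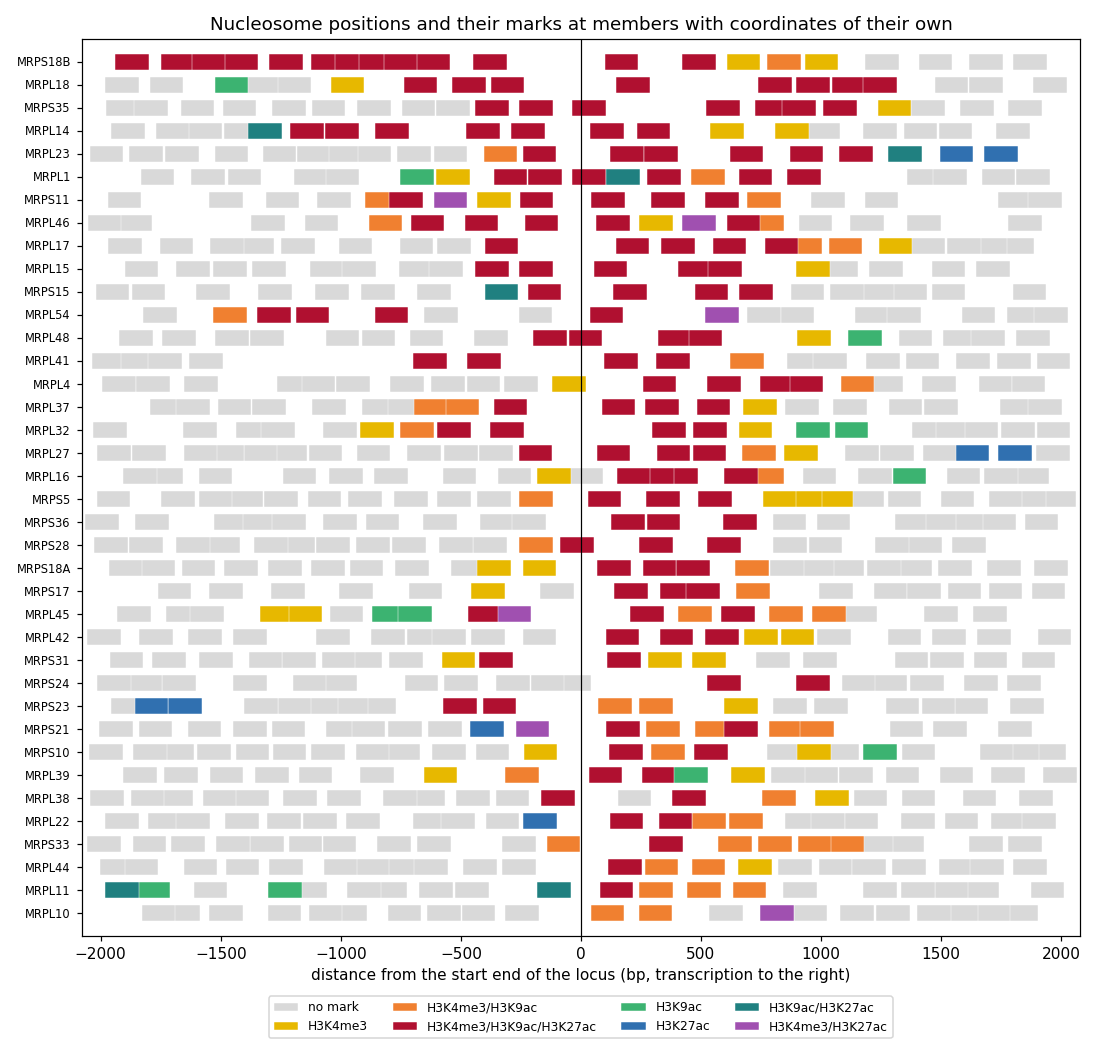
Nucleosome positions (bars of 140 bp) within 2 kb of the start end of the 38 members with their own coordinates, in the direction of transcription, coloured by the combination of marks on each position and ordered by the number of trivalent positions. Marked positions fill the stretch just downstream of the start in nearly every member, with the last H3K4me3 position at 1310 bp downstream, and at MRPS18B 11 trivalent positions lie upstream.

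Downstream of the start, the marked stretch of the members was dense and short. From 0 to 750 bp downstream of the start, 114 of 119 positions carried H3K4me3 (95.8%), beside 73.2% at other expressed genes and 77.6% at 1726 other genes with an FPKM of 20 to 100. In the same zone 67.2% of positions were trivalent (58.0 to 75.6), beside 51.5% and 60.1%. Beyond, from 750 to 1250 bp, 14.4% were trivalent (8.12 to 23), beside 22.0% and 27.5%. H3K4me3 was on 42.3%, beside 50.3% and 58.1%. At loci shorter than 15 kb, members had 14.9% trivalent and 44.8% with H3K4me3, and other expressed genes 19.1% and 42.5%. Trivalent shares in this zone were 9.84% at proteasome, 9.90% at respiratory chain and 31.1% at cytosolic ribosomal protein genes. From 1250 to 2000 bp, 0 of 147 positions were trivalent, which allows a share of up to 2.04%. That share was 7.24% at other expressed genes and 9.18% at those with an FPKM of 20 to 100. H3K4me3 was on 2 of these 147 positions (1.36%), beside 16.9% and 20.9%. The H3K4me3 position farthest downstream lay at a median of 848 bp (quartiles 714 and 997), from 534 bp at MRPS31 to 1310 bp at MRPL17, against a median of 1026 bp (760 and 1407) at 5766 other expressed genes. A dense start was also seen in other gene sets. From 0 to 750 bp H3K4me3 was on 91.0% of positions at proteasome, 87.4% at cytosolic ribosomal protein and 75.8% at respiratory chain genes. In the same order 61.5%, 68.9% and 54.5% of positions were trivalent.

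Upstream of the start the members had no smaller share of marked positions than other expressed genes. From 750 to 0 bp upstream 26.7% of positions were trivalent (19.4 to 35.2), beside 17.5% at other expressed genes. At those with an FPKM of 20 to 100, 1144 of 5728 positions were, a share inside the interval of the members. H3K4me3 was on 42.7% (34.1 to 51.7), beside 32.0% and 32.8%. Trivalent shares in this zone were 28.2% at proteasome, 22.3% at cytosolic ribosomal protein and 18.5% at respiratory chain genes. In the same order 53.5%, 39.3% and 31.1% of positions had H3K4me3. From 2000 to 750 bp upstream 5.65% of member positions were trivalent (3.12 to 9.29), beside 2.05% at other expressed genes and 1.98% at those with an FPKM of 20 to 100. H3K4me3 was on 8.47%, beside 4.46% and 4.06%. Without MRPS18B the shares in this far zone were 2.50% (0.923 to 5.36) and 5.42%.

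With 0 of 147 member positions trivalent from 1250 to 2000 bp downstream, any split by locus length also gives 0. In 26 members shorter than 15 kb this was 0 of 100 positions, beside 6.23% at other expressed genes shorter than 15 kb. In 12 members of 15 kb or more it was 0 of 47. The exact Clopper-Pearson 95% intervals reach up to 3.62% in the short and 7.55% in the long member loci. Other expressed genes of 15 kb or more were not counted apart, so a dependence on length was not tested. Values in this zone varied among other gene sets, where 1 of 164 positions was trivalent at respiratory chain genes (0.610%) and 0 of 95 at proteasome genes, while at cytosolic ribosomal protein genes 11 of 120 were (9.17%). With 1 library per mark, the differences between these sets were not tested.

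**Figure D5:**
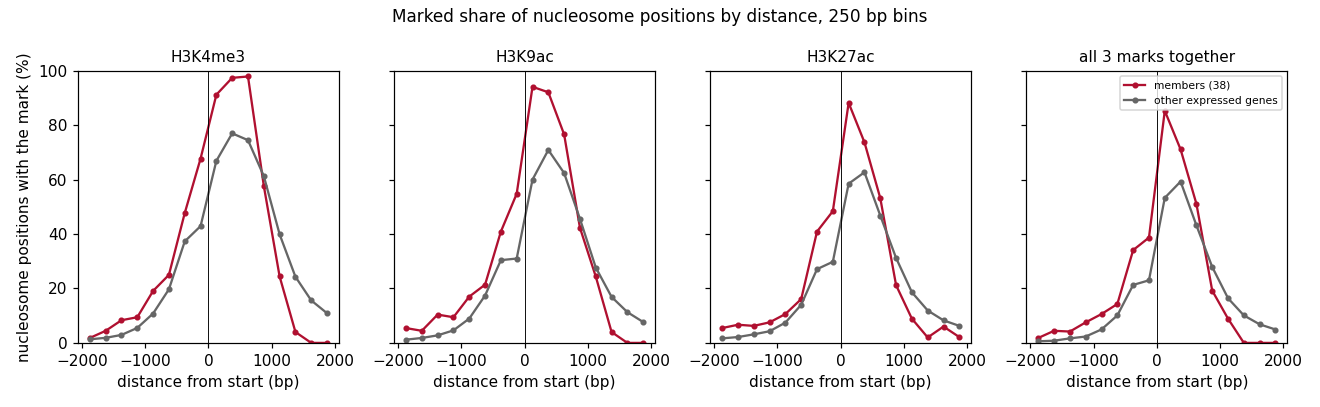
Share of nucleosome positions (%) with H3K4me3, H3K9ac, H3K27ac or all 3 marks together in bins of 250 bp around the start end, for 38 members (red) and 6337 other expressed genes with their own coordinates (grey). In members the trivalent share reaches 85.3% in the first bin downstream, against 53.3%, and is 0 in the last 3 bins, against 10.1%, 6.82% and 4.92%.

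The marks also differed among themselves in reach. In the first 250 bp downstream of the start, H3K4me3, H3K9ac and H3K27ac were on 91.2%, 94.1% and 88.2% of member positions. From 500 to 750 bp H3K4me3 was still on 97.9%, but H3K9ac was on 76.6% and H3K27ac on 53.2%. At other expressed genes the same bin had 74.5%, 62.4% and 46.8%. Positions with H3K27ac alone beyond 1500 bp were seen at MRPL23 and MRPL27.

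Most trivalent positions were downstream of the start. Of 143, 94 were (65.7%, 57.3 to 73.5), beside 76.5% at other expressed genes, and without MRPS18B the share was 70.8% of 130. More T lay downstream than upstream in 28 members, more upstream in 5, and the numbers were equal in 5. The members with more upstream were MRPS18B (11 upstream, 2 downstream), MRPL14 (5 and 2), MRPL54 (3 and 1), MRPL46 (3 and 2) and MRPS23 (2 and 0). Trivalent positions farther than 750 bp upstream, 14 in all, were found in 3 members, with 8 at MRPS18B, 3 at MRPL14 and 3 at MRPL54. Each of these 3 has the end of another named locus within 1 kb of its start. The first trivalent position downstream lay at a median of 176 bp (quartiles 131 and 216, n = 36).

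A gap without a called nucleosome was found at most starts. The widest gap between positions within 500 bp of the start end had a median of 215 bp in the 38 members (quartiles 172 and 298), beside 210 bp (117 and 315) at 6064 other expressed genes and 115 bp (80.0 and 177) at 5388 genes with an FPKM under 0.1. By this measure the gap was at least as wide as a position, 140 bp, in 34 of 38 members (89.5%). The same held in 69.7% of other expressed genes and in 38.1% of the silent ones. A gap that reached a position beyond 500 bp was missed. At MRPS24 no position was called between those at -28.5 and 596.5 bp, but its gap was given as 75 bp. At MRPS35, with positions at 33.5 and 590.5 bp, it was given as 80 bp. With positions within 1 kb the median of the members was 236 bp. The centre of the gap lay upstream of the start end in 24 members, a count not made for other genes. Its median offset was -22.2 bp in the 38 members. At expressed named rows with their own coordinates it was -16.5 bp, and at all such named rows -11.0 bp. Of all members with a value, the widest gaps within 500 bp were at MRPL32 (535 bp), MRPL20 (497 bp) and MRPL9 (489 bp). The last 2 have shared coordinates, and MRPL32 is the large-subunit protein that the m-AAA protease trims on import. The row of MRPS34 and NME3 had 1 position within 500 bp and so no value. Gap and FPKM were not ordered alike, with a rho of 0.15 across the 38 members.

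Another named locus ended within 1 kb of the start end in 10 of 38 members, 26.3%, against 13.6% of expressed named rows with their own coordinates. In 8 of the 10 the nearest row was transcribed away from the member, that is, head to head, and 9 neighbours had an FPKM of 1 or more. Neither count was made for other expressed genes with a neighbour, so nothing particular to the members is read from them. Marks at a start with a neighbour cannot be assigned to either gene. The neighbours were TMEM63B, an ion channel, at 5 bp from MRPL14, EME1, a subunit of a DNA endonuclease, at 19 bp from MRPL27, and PSMA2, a proteasome subunit, at 27 bp from MRPL32. LRRC46 was at 86 bp from MRPL10, CYB5RL at 94 bp from MRPL37 and PPP1R10, a regulatory subunit of protein phosphatase 1, at 250 bp from MRPS18B. The levels within a pair could be far apart, as for MRPL27 at 101 FPKM and EME1 at 7.43, MRPL37 at 83.0 and CYB5RL at 2.69, or MRPL32 at 39.3 and PSMA2 at 110. For the other members of the 10, the nearest row was not head to head by its strand. These rows were ACAT2, at 94 bp from MRPL18 and 192 FPKM, and TJP3, at 648 bp from MRPL54 and 2.59 FPKM. The ACAT2 locus is, however, shared by 5 rows, among them TCP1, a subunit of the cytosolic chaperonin, at 189 FPKM. RefSeq lists starts on the other strand upstream of both members, that of TCP1 at 209 bases from MRPL18 and that of LOC105372248 at 41 bases from MRPL54. Members with such a neighbour had a median of 51.2 FPKM and 4.5 trivalent nucleosomes, and the 28 without one had 38 FPKM and 3.

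In 1 head-to-head pair both genes were members. MRPL46, of the large subunit, ran on the minus strand at chr15:89002709-89010633 and MRPS11, of the small subunit, on the plus strand at chr15:89010684-89021861 (hg19), 51 bp apart. MRPL46 reached 48.3 FPKM in run 1 and 45.1 in run 2, and MRPS11 had 26.8 and 26.4, so the runs did not overlap. The shared region held 9 marked nucleosome positions, from 89009787 to 89011516, of which 5 were trivalent. No position was called between the one that ends at 89010569 and the one that starts at 89010727, a gap of 157 bp that holds both start ends. The nearest position on either side of it was trivalent. Toward MRPS11 the next 2 positions were also trivalent, while toward MRPL46 they carried H3K4me3 alone and then H3K4me3/H3K27ac. RefSeq (GRCh38.p14) sets the 2 starts farther apart than these locus ends. There MRPL46 starts just below 88467389 on the minus strand, and MRPS11 just above 88467707 on the plus strand.

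The bases upstream of the TSS were examined for motifs of factors known for nuclear genes of mitochondrial proteins. NRF1 and the ETS factor GABP are the classical regulators of such genes, and YY1 and SP1 have also been tied to them. Promoter sequences came from RefSeq (GRCh38.p14) and were matched by symbol for 67 of the 76 symbols, not for MRPL2, MRPL10, MRPL13, MRPL15, MRPL21, MRPL23, MRPL35, MRPS28 and MRPS36. They were searched over the 250 bases before the TSS on both strands for exact letters, and are shown here for the members that stand at the ends of the ranges above. In the sequences that follow, capitals mark a match to a motif that was searched, and a sequence stops where a gene on the other strand starts. The highest members with their own coordinates were MRPL27 (chr17:50373185-50373228, minus strand, up to the start of EME1) and MRPL41 (chr9:137551629-137551878, plus strand), and the lowest were MRPL22 (chr5:154940823-154941072, plus strand) and MRPS31 (chr13:40771191-40771440, minus strand).
MRPL27: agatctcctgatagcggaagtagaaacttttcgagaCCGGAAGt
MRPL41: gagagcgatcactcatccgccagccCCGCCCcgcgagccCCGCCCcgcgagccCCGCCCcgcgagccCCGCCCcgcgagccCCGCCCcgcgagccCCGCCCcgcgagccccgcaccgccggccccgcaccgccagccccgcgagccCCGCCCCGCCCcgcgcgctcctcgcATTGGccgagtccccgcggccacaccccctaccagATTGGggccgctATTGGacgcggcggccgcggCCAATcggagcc
MRPL22: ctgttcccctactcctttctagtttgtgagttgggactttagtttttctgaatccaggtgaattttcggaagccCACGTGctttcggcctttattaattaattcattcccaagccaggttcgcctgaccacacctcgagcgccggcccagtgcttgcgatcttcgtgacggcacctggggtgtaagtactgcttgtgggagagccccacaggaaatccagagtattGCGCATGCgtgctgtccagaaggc
MRPS31: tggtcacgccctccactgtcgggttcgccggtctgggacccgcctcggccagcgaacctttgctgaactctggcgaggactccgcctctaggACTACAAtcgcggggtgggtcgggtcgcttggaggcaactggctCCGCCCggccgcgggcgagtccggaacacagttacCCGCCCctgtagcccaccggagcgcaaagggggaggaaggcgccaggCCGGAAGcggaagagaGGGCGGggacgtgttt

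In these sequences MRPL27 has the ETS letters CCGGAAG right before its start, and MRPS31, at a far lower level, has them too. MRPL41 has a run of SP1 letters (GGGCGG, or CCGCCC on the other strand) and 4 matches to the CCAAT box, and MRPL22 has an E-box (CACGTG) and the NRF1 letters GCATGCGC, read here on the other strand as GCGCATGC. The paralogues MRPS18A (chr6:43687792-43688041, minus strand), MRPS18B (chr6:30617590-30617839, plus strand) and MRPS18C (chr4:83455884-83456057, plus strand, up to the start of HELQ) are shown next, because they differ in level and in marks. With them is MRPL32 (chr7:42932175-42932375, plus strand, up to the start of PSMA2), which had the widest gap within 500 bp of the start end.
MRPS18A: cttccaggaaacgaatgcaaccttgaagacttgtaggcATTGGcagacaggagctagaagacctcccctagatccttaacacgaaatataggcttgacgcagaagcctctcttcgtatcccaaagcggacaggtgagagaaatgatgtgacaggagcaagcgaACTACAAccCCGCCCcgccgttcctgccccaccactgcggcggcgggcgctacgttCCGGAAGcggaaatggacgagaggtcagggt
MRPS18B: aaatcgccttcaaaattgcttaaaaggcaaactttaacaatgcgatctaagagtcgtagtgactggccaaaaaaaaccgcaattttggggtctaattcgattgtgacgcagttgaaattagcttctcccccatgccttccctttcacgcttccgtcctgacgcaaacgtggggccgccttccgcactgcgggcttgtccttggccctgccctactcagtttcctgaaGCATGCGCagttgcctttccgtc
MRPS18C: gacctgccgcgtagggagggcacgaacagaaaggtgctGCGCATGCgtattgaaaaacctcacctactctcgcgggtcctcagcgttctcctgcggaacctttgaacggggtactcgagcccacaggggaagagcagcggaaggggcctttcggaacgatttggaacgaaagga
MRPL32: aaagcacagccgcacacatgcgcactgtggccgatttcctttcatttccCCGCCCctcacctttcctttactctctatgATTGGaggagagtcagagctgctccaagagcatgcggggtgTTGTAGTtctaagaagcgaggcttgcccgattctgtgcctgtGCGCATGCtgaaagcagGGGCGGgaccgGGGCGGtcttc

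MRPS18B, with the most trivalent nucleosomes, and MRPS18C have the NRF1 letters, and MRPS18A has the ETS letters and those of ZNF143 (ACTACAA). Beyond the stretch printed, the window of MRPS18C also has the ETS letters, an E-box and a CCAAT box, and that of MRPL27 a CCAAT box. The sequence between MRPL32 and PSMA2 holds NRF1, SP1, ZNF143 and CCAAT letters. Over the 67 promoters the ETS letters CCGGAAG were found in 22 (32.8%), in 8.82% of all 27305 promoters and in 15.5% of 4523 promoters of expressed genes with their own coordinates. The NRF1 letters were found in 6 (8.96%), in 2.81% and in 5.33%, and 27 members had at least 1 of these motifs (40.3%, against 11.1% and 19.6%). YY1 letters (AAGATGGCG) were found in 3 (4.48%, 0.641% and 0.951%), at MRPL36, MRPL52 and, beyond the stretch printed, MRPL32, and those of ZNF143 in 5 (7.46%, 2.64% and 3.98%). SP1 letters were found in 37 (55.2%), more often than in all promoters (42.3%) and less often than in those of expressed genes (69.0%). The CCAAT letters were found in 19 (28.4%, 33.0% and 37.1%), CACGTG in 6 (8.96%, 6.49% and 8.93%), TATAAA in 2 (2.99%, 11.1% and 5.44%) and TGACGTCA in 0 (1.77% and 2.94%). No match overlapped a match to another motif in the members.

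For base composition, the median GC content of these 250 bases was 60.0% in members, 58.0% in all promoters and 65.2% in those of expressed genes, and the median number of CpG was 19, 11 and 21. In 15 of the 67 members a gene on the other strand started within the window, so those bases belong to both genes. A match is a run of letters and not a measured binding site, no factor was mapped in this study, and the shares were not tested against each other.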

How the data were processed

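The members, gene lists, motifs and alternatives were chosen with earlier results of these data known. HepG2 chromatin and RNA were measured in 7 libraries, 1 per assay. The authors called nucleosome positions from native MNase-Seq with DANPOS and histone peaks at these positions with NUCLIZE, and deposited coordinates without a height or score. The authors deposited FPKM per locus, 2 columns for the RNA-Seq sample, in a Cuffdiff layout; the labels do not say whether the columns are separate cultures. The table also holds a fold change and test of the authors' own comparison of the columns, which were not used. Per the labels the build is hg19, and the tools include BWA, TopHat2 2.1.0, Bowtie and HOMER 4.7.

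Both FPKM columns were averaged. A row was taken as expressed at an FPKM of 1 or more. Each peak (146 bp) reached 3 bp beyond a position (140 bp), and every peak was matched to its position. A position was within 2 kb of an end if its midpoint was. The strand came from RefSeq by symbol, or else from the order of the rows, which gave the same strand in 8519 of 8571 rows (99.4%). It was by order alone for 5 members (MRPL10, MRPL15, MRPL23, MRPS28 and MRPS36). A further 6 matching rows lay on other sequences and were left out. Shares have exact Clopper-Pearson 95% intervals, and a count of 0 was given a limit of 3 counts, both for counting error only.

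Named were the 5 members with the highest and lowest FPKM, the 5 with the most and fewest marked positions, those without H3K4me3 or with a repressive mark, the 3 with the largest ratio between runs and the widest gaps, MRPS18A to MRPS18C, members with shared coordinates or a neighbour, and the ends of each list. The extremes among members with their own coordinates, and those in numbers of trivalent nucleosomes, were named after their values were seen. The zones of 750 and 1250 bp, the split at 15 kb and the set of genes at an FPKM of 20 to 100 were also chosen after seeing the profile. Alternatives were other windows, 1 end, rows with their own coordinates, other FPKM limits, each run alone and pseudocounts of 0.01 and 1, and the whole locus was added later. Counting steps were tested on simulated data. Scripts ran under Python 3.11.15 with scipy 1.17.1, pandas 2.3.3, matplotlib 3.10.9 and numpy 2.4.6.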

Additional observations from a re-analysis of the deposited data

How the results depend on the processing

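Of 52 alternative settings over all results, 39 left the value within 1.5-fold or 0.1 of rho with the same sign. Among these 39 was a ratio of large-subunit to small-subunit medians that changed direction. It was 1.22 in the report and 0.853 for rows with their own coordinates. Restricted to rows with their own coordinates and 1 symbol, the counts of members expressed, with H3K4me3 and with T were 38 of 38 each, since fewer rows entered. The count of members with a repressive mark, 1 in the report, was 0 with a window of 1 kb, 0 at the start end alone, 0 for rows with their own coordinates, 4 with a window of 5 kb (MRPL13, MRPL32, MRPL35 and MRPS12) and 12 over the whole locus with 2 kb on either side. The rho of FPKM and T across members, -0.02 in the report, changed sign in each of 5 settings: 0.05 with a window of 5 kb, 0.09 for rows with their own coordinates, 0.27 over the whole locus, and as Pearson's r 0.13 with a pseudocount of 0.01 and 0.11 with 1; the cause was not tested. The whole-locus setting was chosen after seeing the data. A stricter peak threshold was not run because the lists hold no score. No paired analysis was possible because each assay has 1 library. The lists give no reads per position or peak, so a position without a peak is one that was not called, and absence of a mark cannot be told apart from low local coverage. Locus ends of shared rows may be those of another gene, and an end of a locus is not a mapped TSS.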
